A study of Danio rerio with 56 samples.

Results

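Embryos at 10 hours post fertilisation (hpf) whose parents had both eaten benzo[a]pyrene (BaP) were compared with eggs of BaP-fed mothers. The members are the 4 RNA-seq libraries titled BaP 10hpf and the 4 titled BaP eggs, 8 of the 24 RNA libraries and of 56 samples in all. The libraries were chosen by their titles and not by any measured value. The same contrast in 4 control embryo and 4 control egg libraries stands beside it. The fish were zebrafish (Danio rerio) of the 5D strain, and exposure began at 120 days post fertilisation. BaP-fed parents received flakes carrying BaP at 25 µg per g of fish, equal to 1250 µg per g of food, for 21 days, and control parents received flakes treated with acetone alone. Breeding and collection followed the end of the exposure. The title BaP 10hpf was taken to mean that mother and father were BaP-fed, since the crosses with 1 BaP-fed parent have separate titles. The labels do not tie a replicate to a tank or a spawning, so p-values here reflect how these libraries vary among themselves, which may be technical. The BaP embryos differ from the BaP eggs in stage and also in having BaP-fed fathers, and these cannot be told apart within the BaP contrast.

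An egg is loaded with RNA by its mother, and the embryo relies on this store before its own genome is transcribed. After fertilisation maternal RNAs are degraded at different rates, and zygotic genome activation starts transcription of the embryo's own RNAs, so that by the end of gastrulation the pool is largely replaced. BaP is a polycyclic aromatic hydrocarbon that binds the aryl hydrocarbon receptor, a transcription factor that switches on enzymes of BaP metabolism. Those enzymes turn BaP into DNA-binding products. The tables identify each row by an Ensembl transcript identifier with no gene symbol, so transcripts are given by identifier and length, with no gene name or function. The egg and embryo identity of the libraries could therefore not be checked against named marker genes.

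Library totals were 29096693 to 33849499 estimated counts in BaP embryos, 36958460 to 55044612 in BaP eggs, 30751864 to 38130629 in control embryos and 36548517 to 40924407 in control eggs. A count was present for 37663 ± 67.8 transcripts in BaP embryos and 37853 ± 361 in BaP eggs (SD, n = 4 each). By library it was present for 37583 to 37747 in BaP embryos and 37054 to 37560 in control embryos, without overlap. The eggs overlapped, at 37660 to 38395 in BaP and 37159 to 37804 in controls. Log2 CPM (counts scaled to a common library size) of 2 libraries of a group correlated at 0.923 to 0.944 in BaP embryos and 0.922 to 0.940 in BaP eggs, across transcripts, which are not independent replicates. No pair of libraries was identical or differed by less than sampling noise. BaP embryo replicate 2 stood apart. Transcripts enriched in eggs over embryos, a set defined below, took 1.13% of its counts, against 0.466% to 0.515% in the other 3 BaP embryo libraries. Several comparisons with controls are given with and without this library. The counts, shares and fates of transcripts described first for the BaP stage contrast include it.

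Between the BaP eggs and the BaP embryos most of the transcripts tested changed in relative level. BaP embryos had higher values of 12632 transcripts (36.3%) and lower values of 12370 (35.6%) out of 34780 tested (edgeR quasi-likelihood fit, adjusted p under 0.05 by Benjamini-Hochberg). The 4 BaP embryo libraries all lay above the 4 BaP egg libraries for 12157 transcripts (35.0%) and all below them for 11492 (33.0%). Among called transcripts, 10181 were at least 2-fold lower (29.3%), 4287 at least 8-fold lower (12.3%) and 1218 at least 64-fold lower (3.50%). Gains past the same folds numbered 10688 (30.7%), 5646 (16.2%) and 1762 (5.07%). RNA was measured relative to each library's total, so fewer cells of a type and less RNA per cell cannot be told apart, and neither can breakdown of a transcript and dilution by new RNA. The median log2 difference over all tested transcripts was -0.03 on the TMM scale that is used throughout; RLE scaling gave -0.01 and upper-quartile scaling 0.17. The balance of higher and lower calls follows this centring, with 13687 higher and 11248 lower under upper-quartile scaling.

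The transcripts that fell carried a large part of the egg's RNA and little of the embryo's. Those called at least 2-fold lower took 6.19% ± 0.996 of the counts in BaP embryos and 43.4% ± 0.797 in BaP eggs (SD, n = 4 each, here and in the next 5 pairs of shares). Those at least 8-fold lower took 0.499% ± 0.250 in BaP embryos and 20.2% ± 1.10 in BaP eggs. Those at least 64-fold lower took 0.0587% ± 0.0182 in BaP embryos and 10.1% ± 0.860 in BaP eggs. Most egg counts of the transcripts that fell thus belonged to those that fell by less than 64-fold. In the other direction, transcripts at least 2-fold higher took 59.3% ± 1.77 in BaP embryos and 16.02% ± 0.350 in BaP eggs. Those at least 8-fold higher took 21.8% ± 1.28 in BaP embryos and 1.14% ± 0.0624 in BaP eggs, and those at least 64-fold higher took 8.85% ± 0.616 in BaP embryos and 0.0469% ± 0.0109 in BaP eggs.

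Of the 19084 tested transcripts with at least 2 CPM in BaP eggs, 3.66% fell past 64-fold, 11.2% fell 8- to 64-fold, 28.2% fell 2- to 8-fold and 39.7% stayed within 2-fold. Of the 19634 with at least 2 CPM in BaP embryos, 5.96% rose past 64-fold, 12.02% rose 8- to 64-fold and 20.9% rose 2- to 8-fold. The embryo pool was also more concentrated. Ranked by counts, which are not corrected for length, 882 ± 33.6 transcripts held 50% of the counts in BaP embryos, against 1628 ± 62.3 in BaP eggs (SD, n = 4 each). The 100 most counted transcripts took 20.4% ± 0.384 in BaP embryos and 12.7% ± 0.649 in BaP eggs. The same direction held in controls, with 804.5 ± 25.8 transcripts in control embryos and 1554 ± 35.3 in control eggs holding 50% of the counts. By library the number was 852 to 928 in BaP embryos and 773 to 831 in control embryos, without overlap. The eggs overlapped, at 1570 to 1704 in BaP and 1517 to 1594 in controls.

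**Figure D1:**
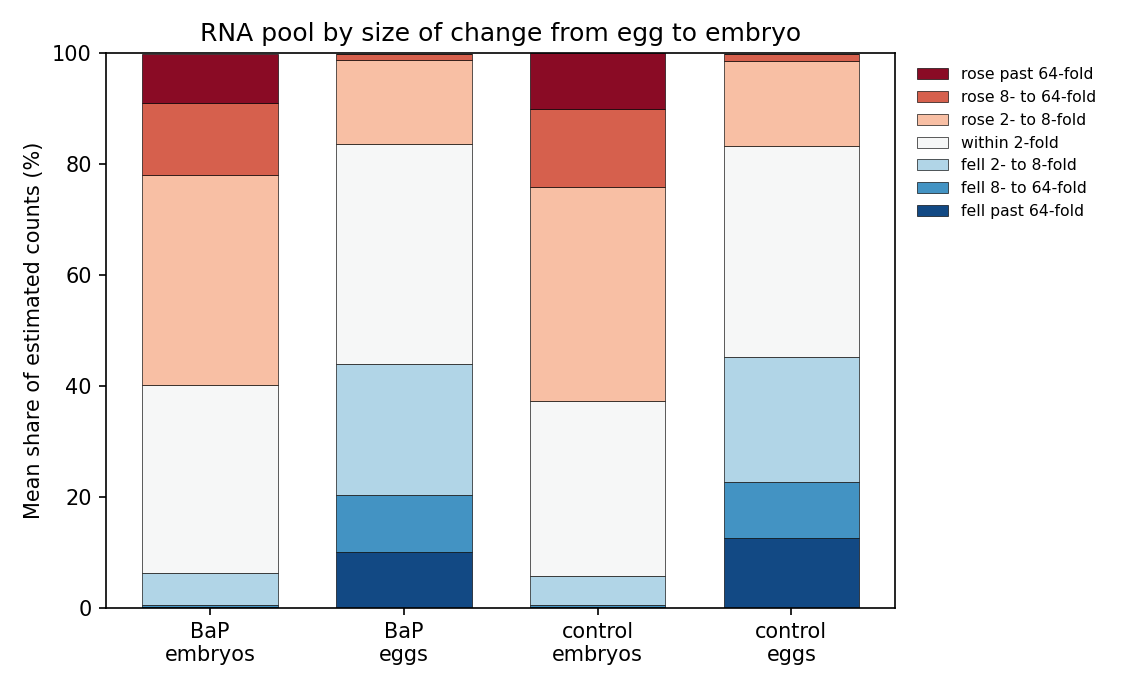
Share of the estimated counts (%) taken by transcripts grouped by their fitted change between stages, for BaP embryos, BaP eggs, control embryos and control eggs (stacked bars of group means, n = 4 libraries each, no error drawn). Transcripts that rose 2- to 8-fold took 38.0% in BaP embryos and 15.1% in BaP eggs, and those that fell 2- to 8-fold took 5.83% in BaP embryos and 23.7% in BaP eggs.

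Some transcripts were seen at only 1 of the stages. With at least 2 CPM on average in BaP eggs, 203 transcripts (1.06% of 19084) had no count in any BaP embryo library, and 117 of these also had none in any control embryo library. With at least 2 CPM on average in BaP embryos, 236 (1.20% of 19634) had no count in any BaP egg library, and 141 of these also had none in any control egg library. In controls 258 transcripts had no count in any embryo library and 262 none in any egg library by the same rule. The BaP numbers include BaP embryo replicate 2. A count of 0 allows up to 3 counts over a group, for counting error only.

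The change varied modestly with transcript length, over transcripts of at least 2 CPM. The median log2 difference between BaP embryos and BaP eggs was 0.20 for transcripts of up to 1000 bases, -0.25 for longer ones up to 2500, -0.21 for those up to 5000 and 0.14 beyond. Calls past 8-fold lower were made for 12.8%, 12.5%, 11.7% and 9.01% of the transcripts in these 4 classes. Calls past 8-fold higher were made for 18.2%, 14.2%, 13.6% and 14.7%. Calls higher of any size were made for 43.4%, 36.3%, 38.6% and 42.8%, and calls lower for 35.9%, 44.3%, 44.2% and 36.8%.

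Among transcripts called and without overlap between the groups, those with the largest fall and gain in mean CPM were named. ENSDART00000183085.1 (1099 bases) had 0, 0.0731, 0 and 0.658 CPM in the 4 BaP embryo libraries, against 2785, 3423, 4212 and 2678 CPM in the 4 BaP egg libraries. It was nearly absent from every BaP embryo library, and its fitted log2 difference was -14.04 ± 0.90 (SE; edgeR adjusted p = 3.1e-09). In controls the log2 difference was -11.77. The size of the BaP value rested on BaP embryo replicate 4, without which it was -16.87. ENSDART00000074085.7 (1352 bases) had 34.6, 57.4, 45.8 and 40.4 CPM in BaP embryos, against 2778, 2723, 2537 and 1982 CPM in BaP eggs. It fell to a similar low level in every library, the groups were far apart, and the log2 difference was -5.81 ± 0.18 (SE) in BaP and -5.81 ± 0.18 in control libraries.

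The largest gains in CPM were of transcripts already present in eggs. ENSDART00000023156.7 (1745 bases) had 13283, 11743, 12796 and 13090 CPM in BaP embryos, against 1378, 1349, 1280 and 1030 CPM in BaP eggs. Replicates of both groups lay close together, and the log2 difference was 3.34 ± 0.10 (SE) in BaP and 3.55 ± 0.10 in control libraries. ENSDART00000126982.3 (1212 bases) had 10768, 18685, 10958 and 17678 CPM in BaP embryos, against 7534, 5280, 8350 and 7105 CPM in BaP eggs. Its BaP embryo libraries fell into a higher and a lower pair, both above every BaP egg library. Its log2 difference was 1.04 ± 0.24 (SE, edgeR adjusted p = 0.00144) in BaP and 0.63 ± 0.24 (SE, edgeR adjusted p = 0.0281) in control libraries. Control embryo replicate 4, at 6674.5 CPM, lay within the control egg range of 6360 to 8280 CPM.

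To set the contrast beside that of controls without using the compared embryos to choose transcripts, sets were taken from all 8 egg libraries and the 8 embryo libraries of the crosses with 1 BaP-fed parent. Egg-enriched transcripts (3113) and embryo-enriched transcripts (3312) reached 2 CPM in the stage where they were higher and had a gap of 3 or more log2 units between stages. Their high share in eggs or embryos holds by construction, whereas the compared embryo libraries took no part. Egg-enriched transcripts took 0.466%, 1.13%, 0.515% and 0.469% of the counts in BaP embryo replicates 1 to 4, against 22.3%, 21.6%, 20.5% and 20.0% in BaP egg replicates 1 to 4. In controls they took 0.444%, 0.468%, 0.423% and 0.467% in embryos, against 21.7%, 21.6%, 21.3% and 22.2% in eggs. BaP embryo replicate 2 lay above all other embryo libraries, and without it the BaP and control embryos overlapped.

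On average the egg-enriched share was 32.7-fold lower in BaP embryos than in BaP eggs, or 43.7-fold lower without BaP embryo replicate 2, and 48.2-fold lower in control embryos than in control eggs. The BaP embryo mean exceeded the control embryo mean by 0.195 percentage points with all libraries and by 0.0325 without that library. Embryo-enriched transcripts took 24.1%, 21.1%, 23.4% and 23.7% in BaP embryos, against 1.57%, 1.42%, 1.47% and 1.40% in BaP eggs. In controls they took 23.7%, 23.5%, 24.1% and 24.0% in embryos, against 1.37%, 1.30%, 1.34% and 1.36% in eggs. Their share rose 15.8-fold in BaP libraries, or 16.2-fold without replicate 2, against 17.7-fold in controls. All 4 BaP egg libraries held more of this RNA than any control egg library, whereas the BaP embryos other than replicate 2 lay among or near the control embryos.

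**Figure D2:**
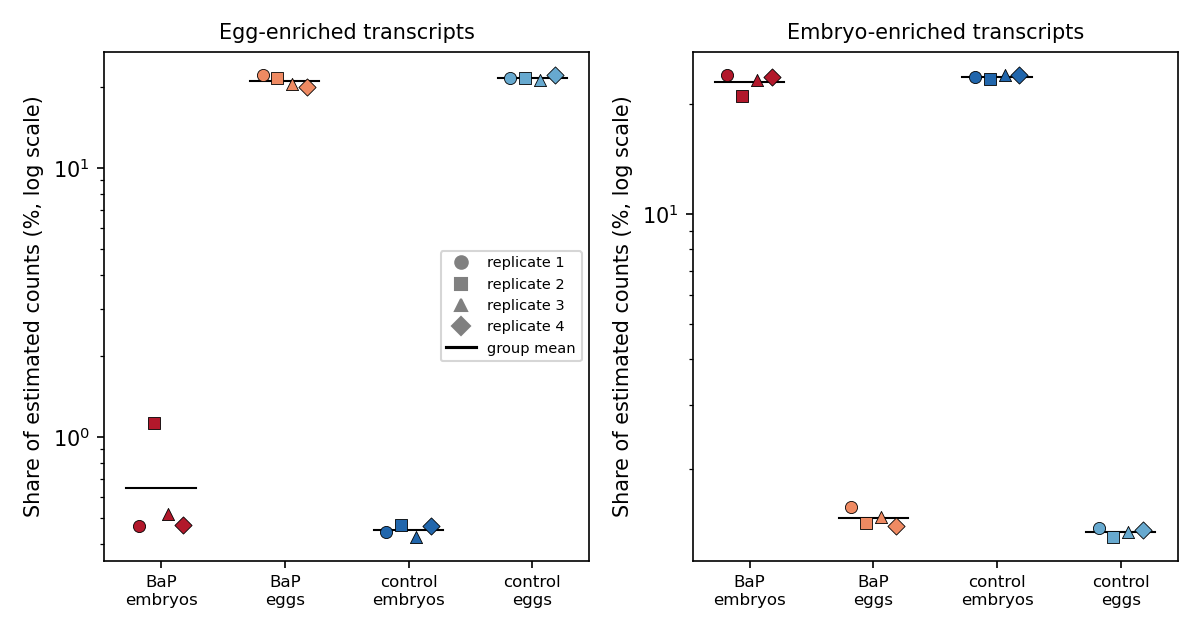
Share of the estimated counts (%) of each library taken by egg-enriched and by embryo-enriched transcripts (vertical log axes; points are libraries and bars are group means, n = 4). BaP embryo replicate 2, at 1.13%, is the only embryo library above 0.515% for the egg-enriched transcripts.

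Transcripts were then divided by how far they had fallen in the embryos with 1 BaP-fed parent. For the 1994 that fell by 3 to 5 on the log2 scale, BaP embryos kept 5.57%, 12.1%, 5.90% and 5.39% of the BaP egg share, and control embryos kept 4.70% to 5.27% of the control egg share. For the 890 that fell by 5 to 7, BaP embryos kept 0.929%, 3.08%, 1.16% and 1.08%, and control embryos 0.965% to 1.04%. For the 229 that fell by over 7, BaP embryos kept 0.213%, 0.860%, 0.320% and 0.240%, and control embryos 0.249% to 0.304%. At each depth of clearance BaP embryo replicate 2 kept the most. The other 3 BaP embryo libraries lay slightly above the controls for the least cleared transcripts and on both sides of them for the most cleared.

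The excess of replicate 2 was spread over many transcripts. It was the highest of the 4 BaP embryo libraries for 59.3% of the egg-enriched transcripts, against 10.7% to 12.8% for the other 3 and 20.1% to 28.0% for the control embryo libraries within their own group. It was the lowest for 43.7% of the embryo-enriched transcripts, against 16.4% to 21.4% for the other 3 and 24.3% to 25.8% for the control embryo libraries. Over all 23051 transcripts of at least 2 CPM it was the highest for 32.2%, against 19.0% to 25.4% for the other 3 and 21.5% to 29.0% in control embryos. It was the lowest for 27.3% of them, against 22.4% to 23.3% for the other 3 and 22.4% to 25.4% in control embryos. Relative to the mean of eggs of the same diet, the median egg-enriched transcript stood at -4.61, -3.41, -4.45 and -4.65 on the log2 scale in BaP embryo replicates 1 to 4, and at -4.66, -4.66, -4.73 and -4.55 in control embryo replicates 1 to 4. Only replicate 2 was more than 1 unit from the rest. Its total of 29820660 and its 37747 transcripts with a count were close to those of its group, and what set it apart was not tested.

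**Figure D3:**
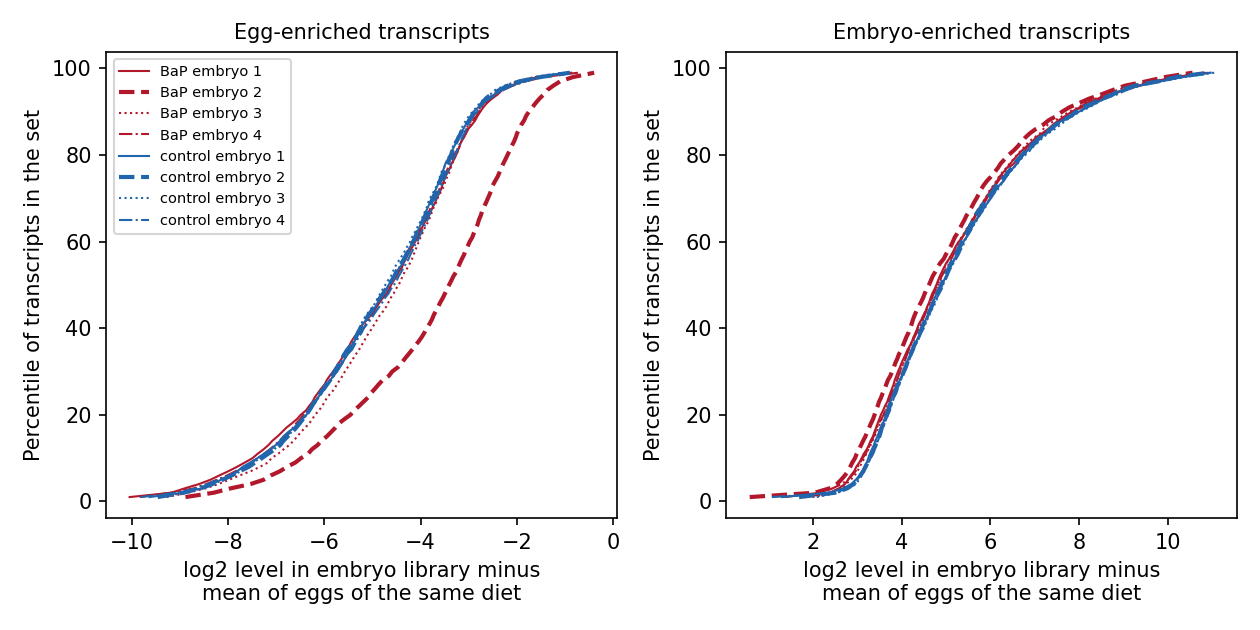
Percentile of transcripts (vertical axis) against the log2 level in an embryo library minus the mean of the eggs of the same diet (horizontal axis), over the egg-enriched and the embryo-enriched transcripts, for each BaP and control embryo library (1 line per library). For the egg-enriched transcripts BaP embryo replicate 2 (thick dashed red line) lies to the right of the other 7 libraries, with a median of -3.41, whereas the embryo-enriched medians run from 4.61 to 4.82 in BaP and from 4.89 to 4.93 in control embryos.

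The gained transcripts were divided in the same way. Those that rose by over 7 on the log2 scale (543) took 7.79%, 6.61%, 7.32% and 7.68% of the counts in BaP embryos and 0.0483%, 0.0252%, 0.0295% and 0.0253% in BaP eggs. They took 7.56%, 7.31%, 7.62% and 7.31% in control embryos and 0.0277%, 0.0218%, 0.0230% and 0.0228% in control eggs. The embryos overlapped, and BaP egg replicate 1 held the most of these transcripts among eggs. Relative to the mean of their own eggs, the gain was 206- to 243-fold in BaP embryos and 307- to 320-fold in control embryos, and it was 248- to 292-fold in BaP embryos with BaP egg replicate 1 left out of the mean. For the 1836 that rose by 3 to 5 the gain was 7.97- to 8.91-fold in BaP embryos and 9.58- to 9.87-fold in control embryos. These took 10.5% to 11.8% of the counts in BaP embryos and 11.7% to 12.01% in control embryos, which overlapped, and 1.27% to 1.39% in BaP eggs and 1.18% to 1.24% in control eggs, which did not. Relative to eggs of the same diet, the median embryo-enriched transcript stood at 4.61 to 4.82 in BaP embryos on the log2 scale. In control embryos it stood at 4.89 to 4.93, without overlap, while the set's shares of the embryo counts overlapped. The embryo libraries of a diet are all set against the same egg mean, here and in the folds above. Their values therefore shift together with that mean and are not independent of each other.

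Clearance and gain in BaP libraries were then set beside those in controls. In controls 12790 transcripts were higher (36.8%) and 12596 lower (36.2%) in embryos, by the same edgeR test. Falls past 8-fold numbered 4287 in BaP and 4977 (14.3%) in control libraries, and falls past 64-fold numbered 1218 and 1663 (4.78%). Refitted without BaP embryo replicate 2, falls past 8-fold numbered 4897 in BaP and 5221 in control libraries, and falls past 64-fold numbered 1754 and 1755. That refit tested 35882 transcripts rather than 34780, and the control counts rose though no control library was left out. All refits in this paragraph tested 35636 to 35882 transcripts. Their counts can be compared between diets within a refit, but not directly with those of the main fit. Leaving out any other BaP library gave 1202 to 1330 falls past 64-fold. Gains past 8-fold numbered 5646 in BaP and 5708 (16.4%) in control libraries, and gains past 64-fold 1762 and 1913 (5.50%). Without replicate 2, gains past 8-fold numbered 5806 in BaP and 5765 in control libraries, and gains past 64-fold 1831 and 1971. Without 1 BaP egg library, gains past 64-fold numbered 1960 to 2020 in BaP and 1994 to 2003 in control libraries. Without 1 control egg library, they numbered 1838 to 1847 in BaP and 2130 to 2150 in control libraries. The count rose more in the diet that lost an egg library, so the size of this gap depended on the libraries left out. The falls counted without replicate 2 set 3 BaP embryo libraries against 4 of controls. Falls past 64-fold grew in number when an embryo library was left out. With 3 libraries in both embryo groups, leaving out replicate 2 and each control embryo library in turn, they numbered 1738 to 1751 in BaP and 1842 to 1879 in control libraries. The gap in falls past 64-fold was thus smaller without replicate 2 but did not close. Gains past 64-fold in these matched refits numbered 1791 to 1800 in BaP and 1900 to 1921 in control libraries.

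Transcript by transcript, both contrasts lay close together, and they share no library. Over 24329 transcripts with at least 2 CPM in a group, the 2 log2 differences correlated at r = 0.949 and rho = 0.977, across transcripts that share libraries and depth. Of these, 87.2% had log2 differences within 1 unit of each other. The SD of the BaP differences was 0.944 times that of the control differences, and 0.996 times without BaP embryo replicate 2. Of the transcripts called lower, 11396 were called in both contrasts, which is 92.1% of those in BaP and 90.5% of those in controls. Of those called higher, 11700 were shared, 92.6% of those in BaP and 91.5% of those in controls. Opposite calls were made for 6 transcripts, of which 4 were higher in BaP embryos and lower in control embryos and 2 were the other way round.

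**Figure D4:**
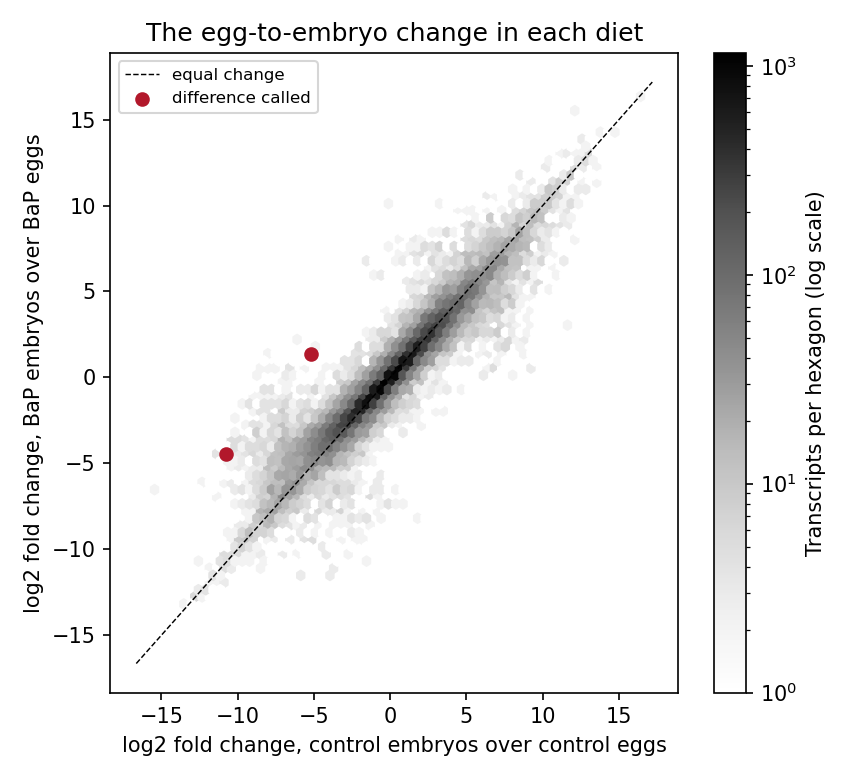
Fitted log2 difference between embryos and eggs in BaP libraries (vertical axis) against that in control libraries (horizontal axis), over all 34780 tested transcripts, as counts per hexagon (grey, log scale), with a dashed line of equal change. The 2 transcripts whose difference of contrasts passed the test are red and lie above the line. Of all tested transcripts, 78.9% lie within 1 log2 unit of it (r = 0.918).

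The difference between the stage contrasts was then tested for each transcript. Only 2 of 34780 passed (0.00575%), both with a positive difference, and none with a negative one (edgeR; 2476, or 7.12%, had p under 0.05 before adjustment). Without BaP embryo replicate 2, edgeR called 2 with a positive and 2 with a negative difference out of 35882 tested. DESeq2 called 252, of which 130 were positive and 122 negative, and limma-voom with sample weights called 1. DESeq2 was run without the edgeR filter. Of its calls, 59.5% had a group with no count at all. That share was 7.40% over the 34780 filtered transcripts tested in edgeR. It was not computed over the 57192 given to DESeq2, so the 2 shares are not on the same base. Without that filter edgeR called 0 of 51547. Transcripts were placed as clearing or rising by the contrast averaged over both diets. Of all tested, 40.5% were called in each direction by that average. Among 14093 clearing transcripts, 62.2% had a positive difference, meaning a smaller fall in BaP libraries, against 53.4% without BaP embryo replicate 2. Among 14084 rising transcripts, 59.6% had a negative difference, meaning a smaller gain in BaP libraries, against 55.6% without it. Over all tested transcripts 51.2% were positive.

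The 2 sets showed the same tilt, which is no separate result, since they lie almost wholly within these classes and use the same libraries. By the average over both diets, 3078 of 3113 egg-enriched transcripts were called lower and 3283 of 3307 embryo-enriched ones higher. For egg-enriched transcripts the median log2 difference between stages was -4.08 in BaP and -4.73 in control libraries, and the median difference of contrasts was 0.41, against 0.01 over all tested transcripts. Without BaP embryo replicate 2 the median difference of contrasts was 0.08. Split by stage, the median of BaP over control was 0.38 in embryos, or 0.01 without replicate 2, and -0.01 in eggs. For embryo-enriched transcripts the medians were 4.85 in BaP and 5.08 in control libraries, with a median difference of contrasts of -0.22, or -0.17 without replicate 2. Here BaP over control was -0.07 in embryos, or -0.03 without replicate 2, and 0.12 in eggs. With groups that had no count set at their floor, the medians of the difference of contrasts were 0.41 for the egg-enriched and -0.20 for the embryo-enriched set. The counts of transcripts without overlap went the same way. Those between embryos include BaP embryo replicate 2 and were not made without it. That library was the highest BaP embryo library for 59.3% of egg-enriched transcripts and the lowest for 43.7% of embryo-enriched ones. It can thus lower the count below controls in the first set and the count above them in the second. BaP embryos all lay above control embryos for 101 egg-enriched transcripts (3.24%) and below them for 16 (0.514%), against 2.45% and 2.43% of all tested. For embryo-enriched transcripts, BaP embryos all lay above control embryos for 61 (1.84%) and below them for 134 (4.05%). BaP eggs all lay above control eggs for 79 embryo-enriched transcripts (2.39%) and below them for 22 (0.665%), against 1.50% and 1.04% of all tested. For egg-enriched transcripts in eggs the counts were 32 above (1.03%) and 43 below (1.38%).

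ENSDART00000152595.3 (854 bases) was 1 of the 2 transcripts that passed, and it cleared less in BaP libraries. It had 0.222, 0.439, 0.139 and 0.329 CPM in BaP embryos, against 5.60, 5.91, 7.37 and 6.60 CPM in BaP eggs. In controls it had no count in any of the 4 embryo libraries, against 6.04, 5.59, 5.56 and 5.61 CPM in eggs. The eggs of both diets were alike, and the BaP embryos kept a small residue of 31.7 estimated counts over the 4 libraries. The fall was 22.6-fold in BaP libraries and at least 217.6-fold in controls, with the floor of 3 counts taken over the group (difference of contrasts, edgeR adjusted p = 0.031). BaP embryos were at least 10.8-fold higher than control embryos (edgeR adjusted p = 0.0106). In the crosses with 1 BaP-fed parent, 0, 0, 6.0 and 6.5 estimated counts were found where the father was BaP-fed, and 0 in all 4 libraries where the mother was. The call held without BaP embryo replicate 2 (edgeR adjusted p = 0.0216) and was lost without BaP embryo replicate 4, BaP egg replicate 1 or 2, control embryo replicate 4 or control egg replicate 1 or 3, with an edgeR adjusted p of 0.0124 to 0.0895 over the 16 omissions. It was also lost without a filter on low counts (edgeR adjusted p = 0.052), in the fit of 24 libraries (edgeR adjusted p = 0.263) and in limma-voom (adjusted p = 0.0668).

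ENSDART00000137799.4 (4605 bases) also passed. It was under 2 CPM on average in every group, so it is named as the other of the 2 calls after its values were seen. It had 0.517, 0.914, 2.33 and 1.15 CPM in BaP embryos, against 0.494, 0.491, 0.230 and 0.696 CPM in BaP eggs. In controls it had 0.0308, 0, 0.0353 and 0.0375 CPM in embryos, against 1.18, 0.873, 1.39 and 0.875 CPM in eggs. It was thus higher in BaP embryos than in BaP eggs by 1.36 ± 0.52 (SE) on the log2 scale (edgeR adjusted p = 0.0301), and it was nearly absent from control embryos. Control eggs held 41.2-fold more than control embryos, with a 95% counting interval of 13.9 to 201.8, since only 3 counts were found in control embryos. The difference of contrasts was 6.56 ± 0.86 (SE, edgeR adjusted p = 0.031). It had 44, 30, 4 and 3 counts in embryos of BaP-fed fathers and 0, 1, 14 and 3 in embryos of BaP-fed mothers, so the single-parent libraries varied widely. The call held without BaP embryo replicate 2 (edgeR adjusted p = 0.0338) and was lost without any of the 6 libraries just named or control embryo replicate 1. It was also lost with no filter, in the 24-library fit and in limma-voom (adjusted p = 0.052, 0.134 and 0.0683).

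The transcripts of smallest p in the other 3 classes did not pass in the edgeR fit of 16 libraries, whereas DESeq2 gave adjusted p-values of 0.00267, 0.0283 and 0.000804 for them, in the order described. ENSDART00000124749.4 (4844 bases), of the class that cleared more, had 0.0369, 0.110, 0 and 0.0987 CPM in BaP embryos, against 5.84, 5.94, 6.96 and 3.94 CPM in BaP eggs. In controls it had 0.461, 0.445, 0.459 and 0.412 CPM in embryos, against 5.38, 2.71, 4.42 and 5.13 CPM in eggs. All 4 BaP embryo libraries lay below all 4 control embryo libraries, and the eggs overlapped (difference of contrasts -3.15 ± 0.65 SE, edgeR adjusted p = 0.352). Only 7 counts were found in BaP embryos, against 51 in control embryos. BaP eggs held 91.8-fold more than BaP embryos, with a 95% counting interval of 44.4 to 228.9. Embryos of BaP-fed fathers had 2, 8, 5 and 2 estimated counts, and embryos of BaP-fed mothers 1, 0, 3.6 and 17.

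ENSDART00000192843.1 (1043 bases), of the class that rose less, had 8.24, 10.2, 10.2 and 8.92 CPM in BaP embryos, against 0.0471, 0.0819, 0.115 and 0.105 CPM in BaP eggs. In controls it had 10.2, 10.3, 6.81 and 7.08 CPM in embryos and no count in any egg library. The embryos overlapped, and the diets were separated by the eggs, where 17.4 estimated counts in BaP eggs stood against 0. The gain was 107.2-fold in BaP libraries and at least 502-fold in controls (edgeR adjusted p = 0.0696). It passed in the fit of 24 libraries (edgeR adjusted p = 0.0427) and without control embryo replicate 3 (edgeR adjusted p = 0.0462), over a range of 0.0283 to 0.729 across alternatives.

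ENSDART00000140371.2 (2684 bases), of the class that rose more, had 34.2, 38.1, 52.9 and 61.3 CPM in BaP embryos, against 2.85, 2.65, 3.80 and 2.68 CPM in BaP eggs. In controls it had 16.5, 19.4, 15.9 and 15.5 CPM in embryos, against 2.76, 3.21, 3.22 and 2.38 CPM in eggs. The eggs overlapped and every BaP embryo library exceeded every control embryo library. The difference of contrasts was 1.42 ± 0.27 (SE, edgeR adjusted p = 0.245), while the embryos alone differed by 1.47 ± 0.19 on the log2 scale (edgeR adjusted p = 0.0166). On the scale of all 24 libraries, embryos of BaP-fed mothers had 22.3 to 31.3 CPM, embryos of BaP-fed fathers 14.8 to 19.8 CPM, BaP embryos 32.03 to 57.5 CPM and control embryos 14.5 to 18.2 CPM.

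**Figure D5:**
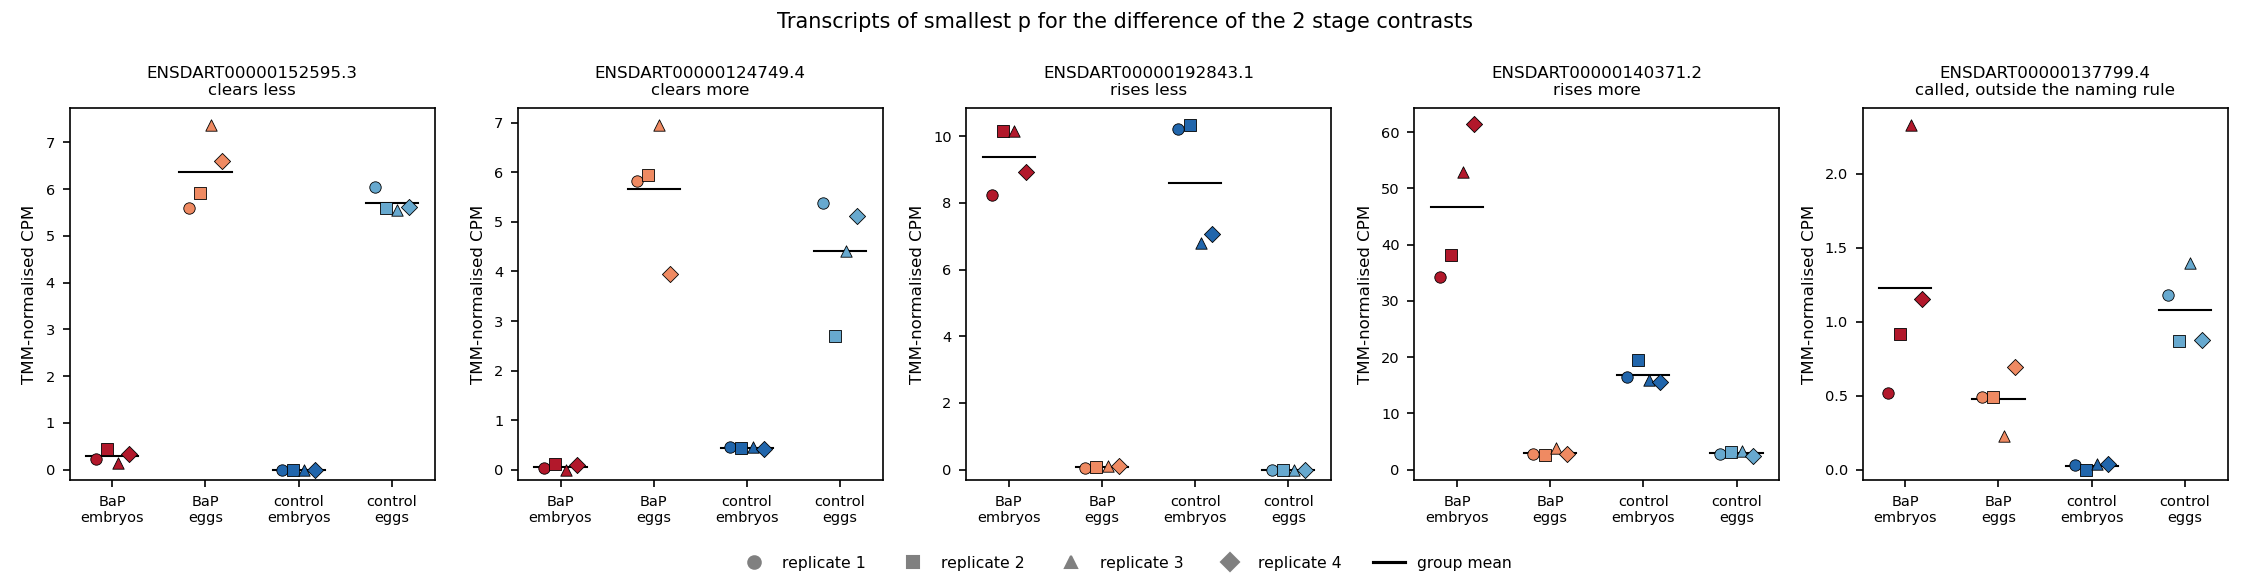
TMM-scaled CPM per library (linear axes; points are libraries and bars group means, n = 4) of the 5 transcripts described for the difference between the stage contrasts, in BaP embryos, BaP eggs, control embryos and control eggs. ENSDART00000152595.3 has no count in any control embryo library and 0.139 to 0.439 CPM in BaP embryos, whereas its eggs lie between 5.56 and 7.37 CPM.

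The stages were also compared between diets, since the difference of contrasts is the embryo difference minus the egg difference and uses the same libraries. Between BaP and control eggs edgeR called no transcript (0%) and found 2031 (5.84%) with p under 0.05 before adjustment, while DESeq2 called 237 and limma-voom 1. Between BaP and control embryos 4 transcripts were higher (0.0115%) and none lower in edgeR, which found 3142 (9.03%) with p under 0.05 before adjustment, while DESeq2 called 483 and limma-voom 14. The 4 comprise the 2 calls above, ENSDART00000140371.2 and ENSDART00000135153.2 (5193 bases), the last named after its values were seen. ENSDART00000135153.2 had 14.2, 13.2, 14.0 and 15.1 CPM in BaP embryos and 9.87, 8.22, 10.2 and 8.47 CPM in control embryos, with no overlap (log2 difference 0.62 ± 0.08 SE, edgeR adjusted p = 0.0272). Its log2 difference between stages was -2.39 in BaP and -2.94 in control libraries, and the gap did not pass (edgeR adjusted p = 0.426). When BaP embryo replicate 2 was left out, edgeR called 6 transcripts higher and 3 lower in BaP than in control embryos, out of 35882 tested. With all 4 replicates, edgeR called 3 under RLE or upper-quartile scaling, with no filter and with the stricter filter, and 1 in the 24-library fit. Which of the 4 transcripts were among the calls of these alternatives was not recorded.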

How the data were processed

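Of 56 samples, the 24 RNA-seq libraries (4 in each of 6 groups) were read and 16 were tested, and the 32 bisulfite samples were not analysed here. Per the submitters' processing notes, FastQC, Salmon and DESeq2 were used and the build was GRCz11, with no version given in the sources used here. The deposited tables hold, per the file headers, NumReads (an estimated read count), TPM and lengths for each of 57192 transcripts. Deposited TPM values served only for an alternative share. Of the 57192 identifiers 0 matched the gene tables, so the gene and marker lists drawn up could not be used and no sequence is shown.

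The estimated counts, made by the authors before they were deposited, need not be whole. They were rounded and fitted in edgeR 4.0.16 under R 4.3.3 with limma 3.58.1. The filter was filterByExpr, the scaling TMM and the model a mean for each of 4 groups (robust glmQLFit, then glmQLFTest). Transcripts were called at a Benjamini-Hochberg adjusted p under 0.05 over all 34780 tested. Salmon divides reads shared by isoforms by estimate, so the value of 1 transcript can move with its isoforms. CPM are TMM-scaled, and log2 CPM for the sets used a prior count of 2. Standard errors came from the log2 fold change and the F statistic. Shares are percentages of unscaled counts. Named transcripts were the 2 largest falls and 2 largest gains in mean CPM among calls without overlap, and the smallest p with at least 2 CPM in each of 4 classes of the difference. Tests were two-sided, floors were 3 counts over a group, and intervals are 95% exact. The scripts were tested on simulated data. Alternatives were RLE and upper-quartile factors, other filters, DESeq2 1.42.0, limma-voom, a 24-library fit, a replicate block, transcripts with whole counts only, and leaving out libraries. The refits without BaP embryo replicate 2 beyond single omissions, and the gains without BaP egg replicate 1, were chosen after seeing the data. Replicate numbers were not used as pairs. Members, sets and lists were chosen with earlier results of these data known.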

Additional observations from a re-analysis of the deposited data

Results flagged for a closer look

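In 62 groups of 4 values examined for 1 library far from the other 3, 7 had such a library. Chance gives about 1 in 20 groups where the values are independent and normally distributed. The groups here share libraries and some hold CPM near 0, so the 7 cannot be weighed against that rate. BaP embryo replicate 2 had 1.13% of its counts in egg-enriched transcripts, against 0.466% to 0.515% in the other 3 BaP embryo libraries, and its median egg-enriched transcript stood at -3.41 relative to BaP eggs on the log2 scale, against -4.65 to -4.45. In BaP embryo replicate 4 the 100 most counted transcripts took 21.0% of the counts, against 20.2% to 20.3% in the other 3. The same library had 0.658 CPM of ENSDART00000183085.1, against 0 to 0.0731 CPM. BaP egg replicate 2, the deepest library at 55044612 estimated counts, had 38395 transcripts with a count, against 37660 to 37692 in the other BaP eggs. BaP egg replicate 3 had 3.80 CPM of ENSDART00000140371.2, against 2.65 to 2.85 CPM. Control egg replicate 1 had 6.04 CPM of ENSDART00000152595.3, against 5.56 to 5.61 CPM.

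The stage contrasts of BaP and control libraries differed by test for ENSDART00000152595.3, by 6.25 ± 0.70 (SE) on the log2 scale, and for ENSDART00000137799.4, by 6.56 ± 0.86 (SE). The edgeR adjusted p was 0.031 for each. For ENSDART00000152595.3 the fitted size depends on a group with no count and is no bound.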

How the results depend on the processing

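Counts of all transcripts called higher or lower between stages stayed within 1.5 times under the other scalings, filters, tests and single omissions run, except where testing was limited to 5983 transcripts with whole counts, which gave 2001 higher and 2748 lower in BaP and 2067 and 2740 in control libraries, fewer transcripts being tested. Counts past a fold were also lower with the stricter filter, which tests fewer transcripts: falls past 8-fold and 64-fold numbered 2776 and 700 in BaP and 3247 and 988 in control libraries, and gains 3471 and 1162 in BaP and 3568 and 1242 in controls. Leaving out 1 library gave 12239 to 12930 higher and 11794 to 12535 lower in BaP, and 12299 to 13077 and 12117 to 13008 in controls. These omissions tested 35752 to 35903 transcripts, against 34780 in the main fit. The direction of no named value reversed.

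Calls between diets were few and unsteady, and the causes were not tested. The difference of contrasts (2 calls) gave 0 without a filter, 1 with the stricter filter, 5 with 24 libraries, 1 with whole counts, 252 in DESeq2, 1 in limma-voom and 0 to 8 with 1 library left out. Eggs (0 calls) gave 54 with 24 libraries, 2 with whole counts, 237 in DESeq2, 1 in limma-voom and 0 to 11 with 1 left out. Embryos (4 calls) gave 1 with 24 libraries, 483 in DESeq2, 14 in limma-voom and 2 to 18 with 1 left out. Over all alternatives the adjusted p ran from 0.000709 to 0.532 for ENSDART00000152595.3 and from 1.55e-06 to 0.532 for ENSDART00000137799.4 (edgeR, DESeq2 or limma).

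With 1 library left out, the median difference of contrasts was 0.08 to 0.49 for the egg-enriched and -0.26 to -0.15 for the embryo-enriched set, and with 1 of the 8 BaP libraries left out the embryo shares differed by 0.0325 to 0.254 and by -1.10 to -0.106 percentage points. Set thresholds of 2 and 5 gave 0.416 and 0.0531 points for the egg-enriched and -1.47 and -0.271 for the embryo-enriched share, and shares of TPM gave 0.110 and -1.10.

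With the replicate number as a block, 0 transcripts were called for the difference, for eggs and for embryos, and the stage counts stayed within 1.5 times. The edgeR adjusted p for the difference was then 0.532 for both ENSDART00000152595.3 and ENSDART00000137799.4. Same-numbered libraries of different groups correlated at -0.044 to 0.165 in their deviations (24 pairs, 1 over 0.1), and 11 correlations were best with the own number. These included every pair of BaP and control embryos, at 0.028 to 0.048. Also included were BaP embryos with BaP eggs for replicates 1 to 3, at 0.072 to 0.090, but not replicate 4, at -0.013. BaP eggs with control eggs were included for replicates 1, 3 and 4, at 0.043 to 0.165, and BaP embryos with control eggs for replicate 2 only. No pair of control embryos with eggs of either diet was included. The correlations were low and the labels do not tie numbers to spawnings, so whether the numbers pair libraries could not be settled.

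Both calls rest on embryo groups with 0 or 3 counts in all, where depth limits the size of a fold.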
